A study of Mus musculus with 48 samples.

Results

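Mouse embryonic stem cells carry 5-methylcytosine at CpG sites. DNMT1 copies the mark onto new DNA strands with the help of UHRF1, whereas DNMT3A and DNMT3B, together with the catalytically inactive partner DNMT3L, set it on unmethylated DNA. TET1 and TET2 oxidise the methyl group, TDG excises the oxidised bases so that base excision repair can restore cytosine, and MBD3 is a subunit of the NuRD chromatin remodelling complex. The 9 genes for these proteins are described here after a block of transcription. They were chosen by name, and gene identifiers were matched to mouse symbols. At least 1 library listed 6 of the 9 genes, out of 23862 gene identifiers listed in any library.

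The cells were E14TG2a, a line of mouse embryonic stem cells grown in "2i + LIF" medium, and all libraries came from cells kept in 1 µM flavopiridol, an inhibitor of the kinase P-TEFb, which releases paused RNA polymerase II. Polyadenylated RNA was sequenced from unfractionated cells (total), the nucleus, the cytosol and the membranes, which successive detergents separate, at 30, 60, 120 and 240 min with 3 independently passaged replicates, giving 48 libraries. No untreated group or other genotype enters these comparisons, and the 0 min libraries were not analysed here. Each value is a transcript level relative to the 0 min level of that fraction. Thus 1 is the 0 min level and the amount in 1 fraction relative to another is not given. The question was how fast the transcripts of each gene disappear from each compartment once no new ones are made.

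All 10 genes of a list of embryonic stem cell markers were listed in 37 to 48 libraries, Pou5f1, Sox2 and Nanog in all 48. Of 8 fibroblast markers, 5 were listed in no library, and of 8 markers of differentiated lineages, 2 were. Col1a1 was listed in 44 libraries, Thy1 in 43, Sox1 in 47, T in 46 and Gata6 in 42, against 37 for the stem cell marker Esrrb. Cdx2 was listed in 27, Col1a2 in 12, Pax6 in 7 and Sox17 in 1. Listing alone thus does not tell these cell types apart. The nuclear 30 min library of replicate 1 stood apart, with a median ratio over its genes of 0.555 where the highest nuclear 30 min library had 0.934. The ratios of a gene within a fraction, each divided by a factor of its library, stand to each other as whole numbers, and the smallest set that fits (tolerance 1e-06) was recovered for 99.9% of genes in total RNA. They summed to between 4.16e+06 and 6.26e+06 per library and show how finely a ratio was measured. The median gene stood at 60.5 in the nucleus to 69.5 in the cytosol. All 12 libraries of a fraction were divided by the same 0 min values, whose own error is therefore in none of the SDs below.

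The members were listed very unevenly. Tet1, Tet2 and Tdg were listed in all 48 libraries, and Mbd3 in 45. Dnmt1 was listed in 31 libraries, namely all 12 of total RNA and of the nucleus, 7 of the membrane fraction and 0 of the cytosol. Dnmt3l appeared in 3 libraries, the nuclear 30 min ones, with ratios of 0.698, 2.20 and 0.901 that rest on the whole numbers 1, 2 and 1. Uhrf1, Dnmt3a and Dnmt3b were listed in 0 of 48 libraries. The files leave out genes at 0, and a gene can be missing for reasons other than an absent transcript, because Gapdh, which all cells use, was listed in 31 libraries with whole numbers of 1 to 11, while Pou5f1 had 12434 to 20445 in total RNA. The reason was not tested. Among the other genes of the pathway, Ehmt2, Mbd6, Chd4, Mta1, Xrcc1 and Setdb1 were likewise listed in 0 libraries.

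Few whole numbers stood behind several members. In total RNA the median number was 30.5 for Tet1, 15.5 for Tet2, 5 for Mbd3, 4.5 for Tdg and 3 for Dnmt1. A step of 1 was worth 0.017 to 0.028 of the 0 min level for Tet1, but 0.159 to 0.269 for Dnmt1. In the nucleus a step was worth 0.199 to 0.473 for Tdg. Of the genes with values in all libraries of total RNA, 1.80% had a lower median number than Dnmt1 and 38.3% a lower one than Tet1. The values of Tdg, Mbd3 and Dnmt1 are therefore coarse, and the plot of whole numbers by member shows them mostly below the lower quartile of all genes.

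**Figure D1:**
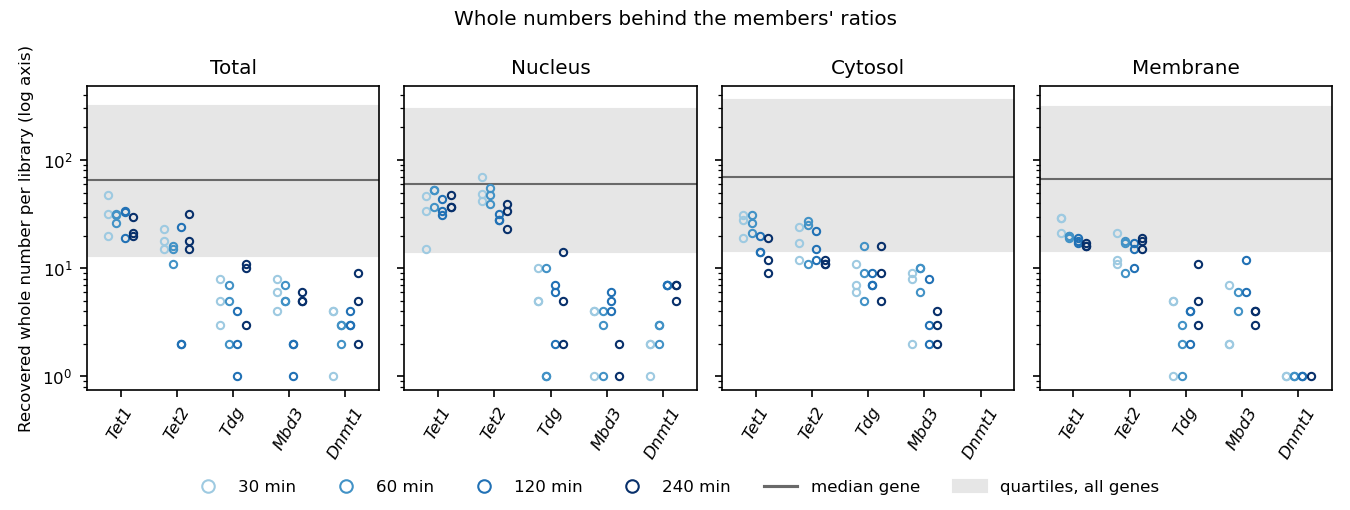
The smallest whole numbers behind the ratios (log axis) are plotted for each member in each library, with a panel for each fraction and darker points for later times. The grey line is the median gene and the grey band spans the quartiles of genes with values in all 12 libraries of the fraction. Tet1 (median 30.5 in total RNA) and Tet2 (15.5) lie mostly within the band, Tdg, Mbd3 and Dnmt1 (4.5, 5 and 3) below it, and Dnmt1 has no points in the cytosol.

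Where the genes lie and what their annotated messages hold was taken from the GENCODE M21 annotation of GRCm38. Tet1 spans chr10:62804570-62908996 on the minus strand, Tet2 chr3:133463679-133545139 (minus), Tdg chr10:82629828-82650799 (plus), Mbd3 chr10:80392539-80399550 (minus) and Dnmt1 chr9:20907209-20959888 (minus). The transcript with the longest coding sequence had a 3′ UTR of 7955 bases in Tet1, longer than in 99.1% of the 8373 coding genes that were listed in all 48 libraries and have an annotated 3′ UTR, against 2898 in Tet2, 2079 in Tdg, 485 in Mbd3 and 312 in Dnmt1. AU-rich elements in 3′ UTRs are known as sites of decay factors, so their letters were searched on the transcript strand. The pentamer ATTTA occurred 10 times in Tet1, 4 times in Tet2, 6 times in Tdg and in neither Mbd3 nor Dnmt1, and 67.6% of the 8373 genes held it. Among genes with a 3′ UTR of like length, within 1.25 times, the median was 14 for the length of Tet1, 5 for that of Tet2 and 3 for that of Tdg, so Tet1 and Tet2 held fewer than the median and Tdg more. The overlapping 9-letter form TTATTTATT, held by 7.27% of those genes and by 28.9% of the 135 with a 3′ UTR within 1.25 times the length of that of Tet1, occurred in Tet1 alone among the 9 members. Its surroundings at chr10:62807560-62807588 (GRCm38, minus strand, 3′ UTR), shown because no other member held the match, read 5′ to 3′ with the match in capitals as follows.
Tet1: ggttaataatTTATTTATTccttttctac
The match is a description of the letters and no measurement of binding.

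Tet1, a dioxygenase that is abundant in pluripotent cells, fell in 3 of 4 fractions, the nucleus being the exception. Its total RNA ratios were 1.11, 0.897 and 0.503 at 30 min and 0.332, 0.522 and 0.380 at 240 min in replicates 1, 2 and 3. The lowest 30 min value overlapped the 240 min values. The slope of log2 ratio on time was -0.28 ± 0.07 per h (SE), with an adjusted p of 0.0053. Over all genes tested in total RNA, 56.9% fell by this test and 3.39% rose, and Tet1 was 1 of 5 members tested that fell, with 0 that rose. Without replicate 1 the slope was -0.21 with an adjusted p of 0.098.

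In the cytosol the first Tet1 ratios lay above 1, but the 30 min level was not tested against the 0 min level. A step of 1 was worth 0.070 to 0.105 of the 0 min level there. The error of the shared 0 min value, which is not known, enters every ratio. The ratios were 2.62, 3.01 and 2.00 at 30 min and 2.30, 1.89 and 2.87 at 60 min, then 1.15, 1.15 and 1.61 at 120 min and 1.40, 0.839 and 0.673 at 240 min. Every library at 30 and 60 min lay above every library at 120 and 240 min. The mean went from 2.54 ± 0.51 (SD, n = 3) to 0.97 ± 0.38, a slope of -0.43 ± 0.08 per h with an adjusted p of 3.8e-04. The step from 60 to 120 min, -0.85 ± 0.29 on the log2 scale, passed the test with an adjusted p of 0.048, as it did for 34.5% of genes. The 240 min mean was not separable from the 0 min level (log2 ratio -0.11 ± 0.21, adjusted p = 0.62).

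In the membrane fraction, which holds transcripts at the endoplasmic reticulum, Tet1 gave its most even series. The ratios were 1.54, 1.10 and 1.49 at 30 min, 0.914, 0.911 and 0.917 at 60 min, 0.803, 0.717 and 0.929 at 120 min and 0.536, 0.543 and 0.646 at 240 min. The 30 min and 240 min libraries lay apart from those of every other time. The slope was -0.31 ± 0.05 per h with an adjusted p of 1.0e-04, and the steps from 30 to 60 min (-0.57 ± 0.15 log2, adjusted p = 0.036, 12.7% of genes fell) and from 120 to 240 min (-0.50 ± 0.15, adjusted p = 0.019, 37.6% fell) passed the test.

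In the nucleus Tet1 did not pass the test. Its ratios were 0.394, 1.41 and 1.56 at 30 min, 1.51, 1.33 and 1.06 at 60 min, 0.815, 1.07 and 0.685 at 120 min and 0.735, 0.659 and 0.819 at 240 min. The low 30 min value belongs to the library that stands apart. The slope was -0.17 ± 0.11 per h with an adjusted p of 0.21. Without that library it was -0.28 with an adjusted p of 0.0015. The slopes of Tet1 did not differ detectably between fractions, with nucleus minus cytosol at 0.26 ± 0.14 per h (adjusted p = 0.20), membrane minus cytosol at 0.12 ± 0.09 (0.55) and nucleus minus membrane at 0.14 ± 0.13 (0.52).

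**Figure D2:**
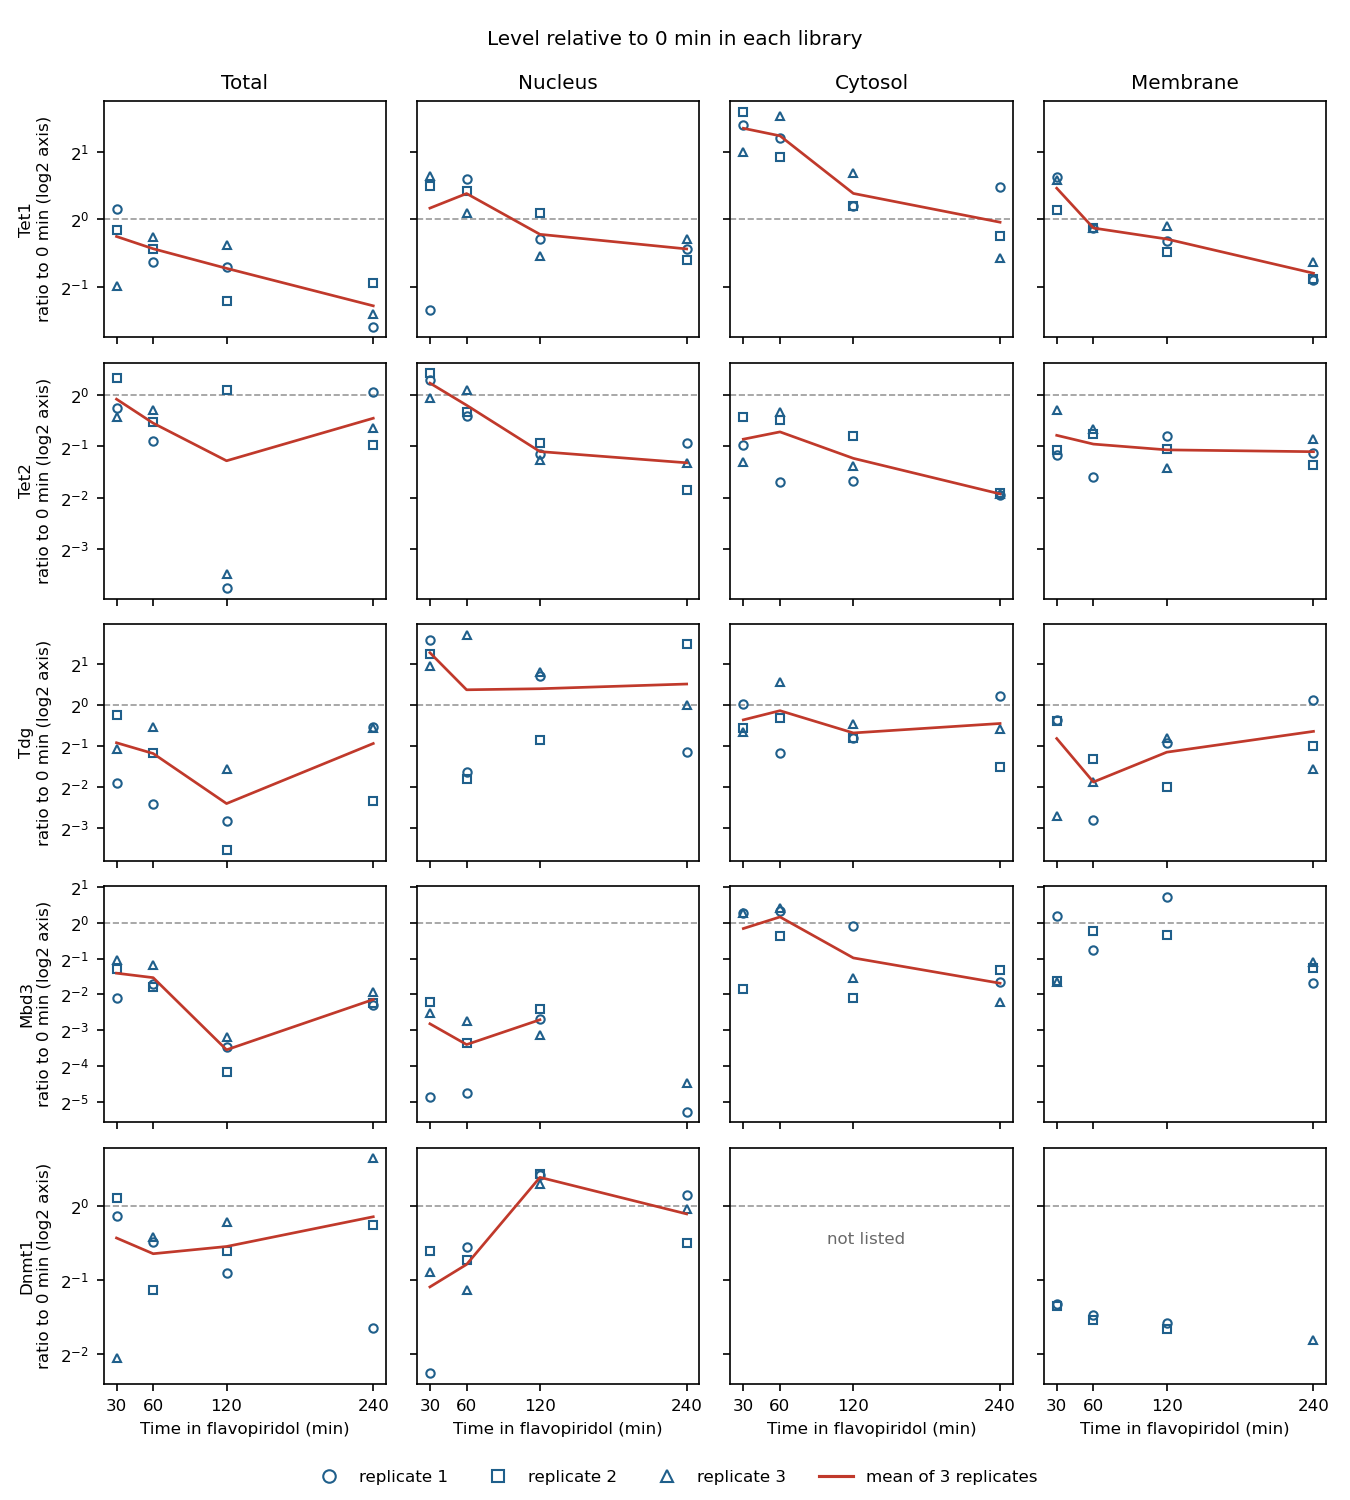
Ratio to 0 min on a log2 axis against time in flavopiridol (min), with a row for each member, a column for each fraction, open symbols for the 3 replicates and a red line through means of 3 replicates. The dashed line is the 0 min level. Tet1 in the cytosol starts at a mean of 2.54 and ends at 0.97, Tet2 in the nucleus goes from 1.18 to 0.401, and Tdg scatters widely at each time.

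Tet2, which oxidises methylcytosine as TET1 does but lacks its CXXC DNA-binding domain, fell in the nucleus and the cytosol. The nuclear ratios were 1.23, 1.34 and 0.965 at 30 min, 0.751, 0.801 and 1.07 at 60 min, 0.455, 0.527 and 0.419 at 120 min and 0.525, 0.277 and 0.401 at 240 min. All libraries at 30 and 60 min lay above all at 120 and 240 min. The slope was -0.44 ± 0.08 per h with an adjusted p of 3.6e-04, and the step from 60 to 120 min was -0.89 ± 0.24 log2 (adjusted p = 0.037, 12.1% of genes fell). Of all genes tested in the nucleus, 61.9% fell and 3.32% rose, and Tet2 was 1 of 4 members that fell, with 0 that rose.

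In the cytosol Tet2 went from 0.508, 0.745 and 0.403 at 30 min to 0.259, 0.268 and 0.263 at 240 min, and the groups did not overlap. At 60 min the ratios were 0.31, 0.718 and 0.799, and at 120 min 0.314, 0.577 and 0.386. The slope was -0.32 ± 0.09 per h with an adjusted p of 0.0076, and without replicate 2 it was -0.26 with an adjusted p of 0.065. In this fraction 67.1% of genes fell and 2.95% rose. Of the 4 members tested, 3 fell (Tet1, Tet2 and Mbd3) and 0 rose.

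The membrane fraction showed Tet2 low from the first time on. Its ratios were 0.445, 0.478 and 0.822 at 30 min, 0.330, 0.590 and 0.629 at 60 min, 0.578, 0.483 and 0.373 at 120 min and 0.460, 0.388 and 0.550 at 240 min, with all 4 times overlapping. The slope of -0.07 ± 0.08 per h did not pass the test (adjusted p = 0.47). Membrane RNA had 62.2% of genes falling and 4.09% rising, and of 3 members tested 1 fell (Tet1) and 0 rose. The nuclear slope of Tet2 was lower than the membrane slope by 0.37 ± 0.11 per h, and this difference, tested by the interaction of time with fraction, had an adjusted p of 0.042. By the same test 8.35% of genes differed in either direction and 6.16% of genes had a lower slope in the nucleus than in the membrane fraction, and Tet2 was 1 of 3 members with 0 in the other direction. The call is narrow, because it was lost with an adjusted p of 0.107, 0.337 and 0.109 without replicate 1, 2 and 3 in turn, and with libraries scaled to mitochondrially encoded mRNAs the difference was 0.00 (adjusted p = 0.98). No member differed between nucleus and cytosol or between membrane and cytosol, where 20.6% and 6.7% of genes did.

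Total RNA gave no clear course for Tet2. The ratios at 120 min were 0.073, 1.07 and 0.089, from whole numbers of 2, 24 and 2, and at 240 min they were 1.05, 0.514 and 0.640. The replicates at 120 min thus lay farther apart than the means of any times. The slope was -0.10 ± 0.27 per h (adjusted p = 0.77).

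Tdg, the thymine DNA glycosylase, passed no slope test. In the nucleus its ratios at 30 min were 3.01, 2.37 and 1.94, and at 60 min 0.325, 0.288 and 3.29, from the whole numbers 1, 1 and 10, and at 240 min 0.455, 2.85 and 0.996. In total RNA the 30 min ratios were 0.268, 0.846 and 0.474 and the 240 min ratios 0.690, 0.197 and 0.682. The cytosolic ratios went from 1.03, 0.681 and 0.631 to 1.18, 0.350 and 0.673, and those of the membrane fraction from 0.784, 0.771 and 0.152 to 1.09, 0.501 and 0.336. All these groups overlap. The slopes were -0.01 ± 0.22 per h in total, -0.13 ± 0.26 in nuclear, -0.08 ± 0.12 in cytosolic and 0.20 ± 0.18 in membrane RNA, with adjusted p from 0.35 to 0.97. In the nucleus the SE of Tdg (0.26) was larger than the size of the Tet1 slope there (-0.17), so such a change was not detectable at this depth. In the cytosol the SE of Tdg (0.12) was smaller than the size of the Tet1 slope (-0.43).

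Mbd3 fell in the cytosol. Its ratios there were 1.20, 0.278 and 1.20 at 30 min, 1.26, 0.772 and 1.33 at 60 min, 0.937, 0.235 and 0.346 at 120 min and 0.316, 0.400 and 0.214 at 240 min. Replicate 2 at 30 min overlapped the 240 min values. The slope was -0.47 ± 0.17 per h with an adjusted p of 0.027, and without replicate 1 or replicate 3 the adjusted p was 0.14 and 0.27. In total RNA the ratios of Mbd3 were lowest at 120 min, with 0.303, 0.288 and 0.444 at 60 min, 0.091, 0.055 and 0.110 at 120 min, and 0.202, 0.212 and 0.264 at 240 min. The step from 60 to 120 min was -2.05 ± 0.34 log2 (adjusted p = 0.0028), where 26.5% of genes fell, and the step from 120 to 240 min was 1.45 ± 0.34 (adjusted p = 0.0076), where 5.92% rose. These 3 times rest on the whole numbers 5, 5 and 7, then 2, 1 and 2, then 5, 5 and 6. A step of 1 was worth 0.040 to 0.068 of the 0 min level. The spread of 3 such coarse values can understate their error, so the drop and the return remain uncertain despite these p-values. The slope in total RNA was -0.23 ± 0.19 per h (adjusted p = 0.33). In the nucleus, where 11 libraries list it, Mbd3 lay between 0.026 and 0.214 at all times, and in the membrane fraction, with 10 libraries, between 0.311 and 1.66. It was not tested in either.

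Dnmt1, the maintenance methyltransferase, was tested in total RNA and in the nucleus. The nuclear ratios were 0.209, 0.658 and 0.540 at 30 min, 0.678, 0.601 and 0.457 at 60 min, 1.33, 1.35 and 1.23 at 120 min and 1.11, 0.708 and 0.97 at 240 min. The 120 min libraries lay above those of every other time. The slope was 0.31 ± 0.13 per h and the step from 60 to 120 min 1.19 ± 0.37 log2, and neither passed the test (adjusted p = 0.059 and 0.056). Divided by its median gene, each library gave a slope of 0.62 (adjusted p = 0.0014), and divided by mitochondrially encoded mRNAs a slope of 0.51 (adjusted p = 0.0065). In the nucleus 3954 of 13343 genes rose by the first scaling and 631 by the second. Without the nuclear 30 min library of replicate 1 the Dnmt1 slope was 0.20 (adjusted p = 0.11), and without replicate 1 it was 0.18 (adjusted p = 0.23). The nuclear ratios rest on the whole numbers 1, 2 and 2 at 30 min and 3, 3 and 2 at 60 min. Those at 120 min were 7, 7 and 7, and those at 240 min 7, 5 and 7. In total RNA the ratios were 0.908, 1.07 and 0.241 at 30 min and 0.318, 0.834 and 1.56 at 240 min, with a slope of 0.08 ± 0.15 per h (adjusted p = 0.67). In the membrane fraction all 7 listed values, from 0.286 to 0.399, rest on the whole number 1.

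The falls are relative to the long-lived genes on which the authors scaled the libraries. The median gene itself had a slope of -0.22 per h in total, -0.30 in nuclear, -0.28 in cytosolic and -0.26 in membrane RNA. When each library was divided by its median gene, the slopes of the members that fell kept their sign but none passed the test. Tet1 stood at -0.05 in total, -0.15 in cytosolic and -0.05 in membrane RNA, Tet2 at -0.12 (nucleus) and -0.04 (cytosol), and Mbd3 at -0.19 (cytosol), with adjusted p from 0.11 to 0.75. Scaled to 7 mitochondrially encoded mRNAs, Tet1 fell in total RNA (-0.39, adjusted p = 0.0012) and the membrane fraction (-0.49, adjusted p = 1.8e-05), and the other 4 slopes stayed negative with adjusted p from 0.11 to 0.38. By this scaling 9115 of 12762 genes fell in total RNA (median slope -0.33) and 10041 of 12408 in membrane RNA (median slope -0.43). In total RNA the division by the median gene left 3961 falls and 3672 rises, against 7262 and 432 as deposited. The median member slope was -0.10 per h in total (n = 5), -0.15 in nuclear (n = 4), -0.37 in cytosolic (n = 4) and -0.07 in membrane RNA (n = 3).

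**Figure D3:**
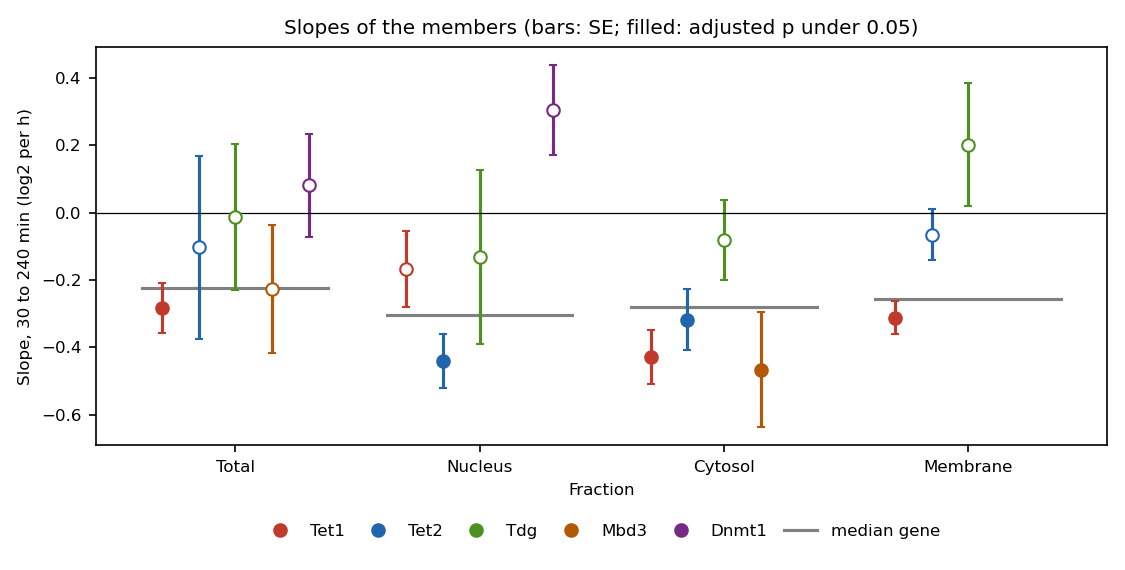
Slope of log2 ratio on time (log2 per h) for each member and fraction, with bars for the SE, filled points where the adjusted p is under 0.05 and grey lines for the median gene. The 6 filled points are negative, from -0.28 for Tet1 in total RNA to -0.47 for Mbd3 in the cytosol, while Dnmt1 in the nucleus lies at 0.31 and is open.

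The level reached at 240 min was compared with the 0 min level by a fit of a mean for each time, and because the 0 min error is missing these p-values are too small. In total RNA Tet1 (log2 ratio -1.31 ± 0.22, adjusted p = 2.4e-04) and Mbd3 (-2.16 ± 0.24, adjusted p = 1.0e-05) lay below it, 2 of 5 members where 73.1% of genes did, and the value of Mbd3 was -1.10 after division by the median gene (adjusted p = 0.0015) and that of Tet1 -0.25 (0.32). In the nucleus Tet2 lay below (-1.37 ± 0.17, adjusted p = 1.7e-05), 1 of 4 where 77.4% did, but at 0.16 relative to the median gene. In the cytosol Tet2 (-1.93 ± 0.26, adjusted p = 5.6e-05) and Mbd3 (-1.74 ± 0.45, adjusted p = 0.0049) lay below, 2 of 4 where 75.9% did, and relative to the median gene they stood at -0.86 (adjusted p = 0.016) and -0.67 (0.20). In the membrane fraction Tet1 (-0.80 ± 0.10, adjusted p = 3.3e-05) and Tet2 (-1.12 ± 0.22, adjusted p = 7.4e-04) lay below, 2 of 3 where 74.1% did, but relative to the median gene Tet1 stood above, at 0.27 (adjusted p = 0.025), and Tet2 at -0.04. No member lay above the 0 min level in any fraction as deposited, where 3.79% (total), 5.53% (nucleus), 3.61% (cytosol) and 6.05% (membrane) of genes did. Relative to the median gene, Tet1 at 240 min was above in the nucleus (1.08, adjusted p = 0.0023) and the cytosol (0.95, adjusted p = 0.0017), and so were Dnmt1 (1.39, adjusted p = 8.7e-05) and Tdg (1.65, adjusted p = 0.042) in the nucleus. By this scaling 5115 of 13343 genes lay above in nuclear, 4232 of 11979 in cytosolic and 4419 of 12408 in membrane RNA. Below lay 4754 of 12762 genes in total and 4483 of 11979 in cytosolic RNA. Scaling to mitochondrially encoded mRNAs moved membrane RNA the other way, with Tet1 at -1.75 (adjusted p = 1.4e-08) and Tet2 at -2.06 (adjusted p = 8.8e-06). Tdg was then below the 0 min level in total RNA (-1.55, adjusted p = 0.0064) and in membrane RNA (-1.76, adjusted p = 0.0047), and Mbd3 in cytosolic RNA no longer passed the test (-0.86, adjusted p = 0.10). With mitochondrial scaling 10979 of 12762 genes lay below in total and 11685 of 12408 in membrane RNA. The median gene then stood at -1.48 in total and -2.02 in membrane RNA.

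An exponential decay with a fitted start gave half-lives, with SDs over fits to the 3 replicate series. Tet1 had 204 ± 145 min in total, 126 ± 43.5 min in cytosolic and 162 ± 37.5 min in membrane RNA. Its nuclear series gave 1472, 194 and 179 min, and 275 min when fitted together. Tet2 had 99.0 ± 27.7 min in nuclear and 188 ± 36.3 min in cytosolic RNA, and the fits to all replicates gave 547 min in total and 712 min in membrane RNA, where the series of replicate 1 was not finite. The cytosolic values of Tet1 and Tet2 thus differ by less than the sum of their SDs. Mbd3 had 146 ± 142 min in total and 122 ± 335 min in cytosolic RNA. Fitted to all 3 replicates together, Dnmt1 gave no finite half-life in total or nuclear RNA, nor did Tdg in total or membrane RNA. Single series gave 133 and 9792 min for Dnmt1 in total RNA (replicates 1 and 2), 32.4 min for Tdg in total RNA and 304 min for Tdg in membrane RNA (both replicate 2), and the other series were not finite. The joint fits of Tdg gave 301 min in nuclear and 919 min in cytosolic RNA. Alone, replicate 2 of Tdg in the nucleus and replicate 1 in the cytosol were not finite. The median over the members was 547 min in total, 288 min in nuclear, 157 min in cytosolic and 712 min in membrane RNA, against 244, 176, 213 and 219 min over all genes, where 12.4% to 18.1% of genes had no finite half-life. These medians are over 3 to 5 genes and moved with the series fitted. Fits to single replicate series gave medians of 348, 210.3 and 401 min in total RNA and 196, 183 and 178 min in cytosolic RNA, none of which reached 547 or fell to 157. In nuclear RNA they were 796 min, not finite and 182 min, and in membrane RNA not finite, 304 and 294 min.

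The time courses of Tet1, Tet2 and Tdg were compared with those of 8557 named genes listed in all 48 libraries (predicted genes left out), by Euclidean distance over 16 mean log2 ratios. The nearest genes to Tet1 were Mfsd6 (1.51) and Lcor (1.53), to Tet2 Phtf1os (1.74) and Phc3 (1.81), and to Tdg Arhgap32 (2.35) and Ncoa4 (2.35). The distances between the 3 members were 3.32 to 4.86. The nearest genes were picked as the smallest distances over all these genes. A larger distance between members therefore does not show that their courses were unlike.

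Of the other genes of the pathway, 46 were tested in total RNA, and 30 fell and 2 rose (65.2% and 4.35%), where 56.9% and 3.39% of all genes did, so the shares are near those of all genes. Among 9 maintenance genes and cofactors 7 fell in total RNA (77.8% against 56.9% of all genes), with a median slope of -0.33 per h against -0.22. In nuclear RNA 66.7% fell against 61.9%, in cytosolic RNA 70% against 67.1% and in membrane RNA 85.7% against 62.2%. The median slopes were -0.30 against -0.30 in nuclear, -0.36 against -0.28 in cytosolic and -0.27 against -0.26 in membrane RNA. These shares, over 7 to 10 genes, were not tested against those of all genes. Uhrf2, a relative of Uhrf1, fell at -0.51 ± 0.03 in total RNA (adjusted p = 5.2e-08) and at -0.59 in each of the other fractions. The deubiquitinase Usp7 fell in total RNA at -0.22 ± 0.03, the remodeller Hells at -0.33 ± 0.05, and Mat2a, which makes the methyl donor, at -1.04 ± 0.31 (adjusted p = 0.010). Mat2a rests on whole numbers of 1 to 69 in total RNA, with a median of 6.5. It also fell in the nucleus (-1.49, adjusted p = 0.0010), but its cytosolic slope of -0.56 did not pass the test (adjusted p = 0.084). In total RNA Zbtb24 had the lowest slope of the list (-1.11 ± 0.15), and Dppa3, which keeps UHRF1 from chromatin, the highest (-0.01 ± 0.09, adjusted p = 0.93).

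Of 15 genes of demethylation and base excision repair tested, 7 fell and 2 rose in total RNA, with a median slope of -0.19 per h. In total RNA 46.7% fell where 56.9% of all genes did, and 13.3% rose where 3.39% did. The share that fell was 60% against 61.9% in nuclear, 66.7% against 67.1% in cytosolic and 58.3% against 62.2% in membrane RNA. These shares, over 12 to 15 genes, were not tested against those of all genes. Tet3, the third TET enzyme, fell in all 4 fractions, at -0.31 ± 0.09 in total, -0.29 ± 0.06 in nuclear, -0.57 ± 0.09 in cytosolic and -0.24 ± 0.07 in membrane RNA, with adjusted p from 5.8e-05 to 0.0096. Gadd45a fell at -0.98 ± 0.15 in total RNA, and Gadd45b was the lowest of the list at -1.20 ± 0.24. Apex1, the endonuclease of abasic sites, fell at -0.33 ± 0.04, whereas the uracil glycosylase Ung had -0.19 ± 0.11 in total RNA (adjusted p = 0.18) and fell in the other 3 fractions. The 2 that rose were Idh1 (0.26 ± 0.11, adjusted p = 0.048) and Neil2 (0.25 ± 0.09, adjusted p = 0.0286), the latter named after its value was seen. Idh1, with whole numbers of 3 to 16 in total RNA, had slopes of -0.12 in nuclear, -0.02 in cytosolic and -0.15 in membrane RNA that did not pass the test, and its 240 min level in total RNA was -0.0088 on the log2 scale. Neil2 also rose in cytosolic (0.32) and membrane RNA (0.35), and its nuclear slope was -0.25 (adjusted p = 0.17).

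The list drawn up as readers of methylated CpG had 6 of 7 genes falling in total RNA (85.7% against 56.9% of all genes). Its median slope was -0.56 per h against -0.22 for all genes. The share over 7 genes was not tested against that of all genes. Whether each listed gene, Mbd5 among them, binds methylated CpG was not tested. Mbd2 fell at -0.41 ± 0.04 and Mbd4, a glycosylase with a methyl-CpG-binding domain and the lowest of the list, at -0.72 ± 0.08, and Mbd5 was highest at -0.14 ± 0.08 (adjusted p = 0.17). Of 10 NuRD genes tested 5 fell in total RNA (50% against 56.9% of all genes), with a median of -0.13 per h against -0.22. The share that fell was 50% against 61.9% in nuclear, 70% against 67.1% in cytosolic and 50% against 62.2% in membrane RNA. These shares over 10 genes were not tested against those of all genes. In total RNA Gatad2b (-0.48 ± 0.06) was lowest and Mta2 fell at -0.42 ± 0.03. The deacetylase Hdac1 stood at 0.01 ± 0.03 (adjusted p = 0.77) and Mta3 was highest at 0.08 ± 0.12. All 5 tested genes of imprint protection and CpG island binding fell in total, nuclear, cytosolic and membrane RNA. Of all genes 56.9%, 61.9%, 67.1% and 62.2% fell in these fractions. The share over 5 genes was not tested against that of all genes. Zfp57, which guards imprints, had the lowest slope of the list in total RNA, -1.61 ± 0.08 per h (adjusted p = 1.6e-08), and Trim28, its corepressor, the highest, -0.19 ± 0.03.

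**Figure D4:**
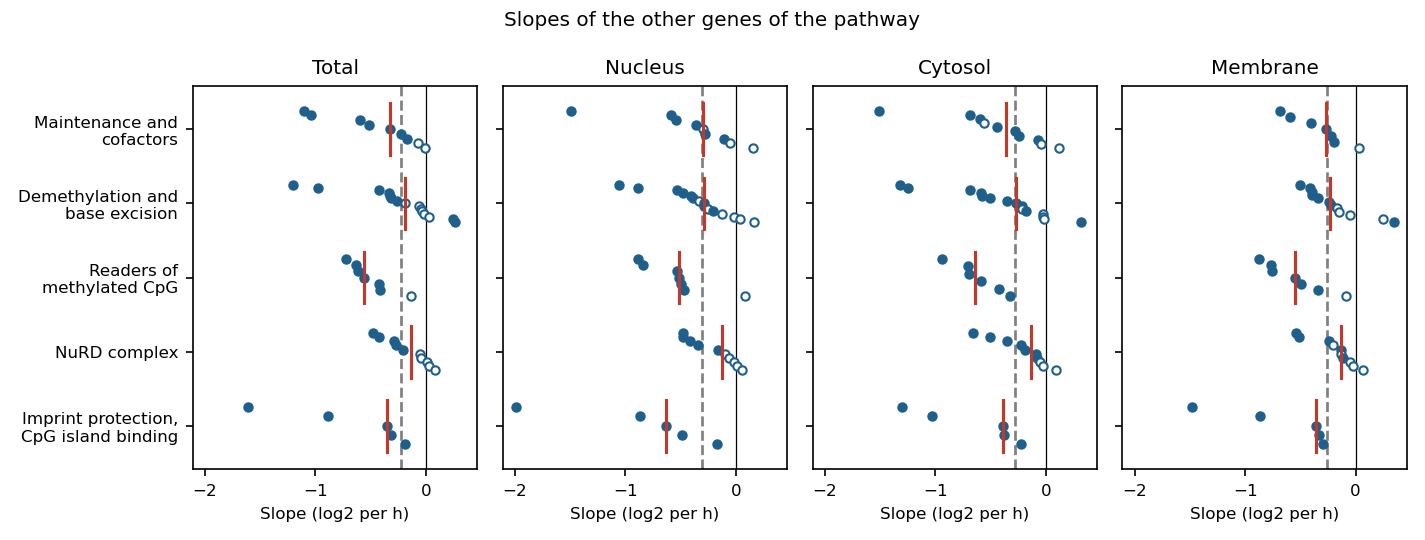
Slopes (log2 per h) of the pathway genes other than the members, with a panel for each fraction and a row for each list. Points are genes, filled where the adjusted p is under 0.05, red bars are list medians and the dashed line is the median of all genes. In total RNA the genes listed as readers of methylated CpG lie left of the dashed line (median -0.56) except Mbd5 (-0.14), and the median of the NuRD genes lies right of it (-0.13).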

How the data were processed

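Polyadenylated RNA of 48 flavopiridol libraries was analysed. Reads were mapped by the authors with STAR 2.7.6 to mm10 and counted with RSEM 1.3.3. Libraries were scaled on genes of long known half-life and divided by 0 min, so the deposited values are ratios. For the last time the titles give 240 min, which was used here, and a protocol gives 180 min. Recovered whole numbers show that libraries of a fraction share the 0 min divisor. They were used to describe depth, and no count model was run.

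Fits on log2 ratios used limma 3.58.1 (R 4.3.3) and the genes with a value in each of the 12 libraries of a fraction (both fractions for differences), with no pseudocount (lmFit, eBayes with trend, two-sided), as a slope on time, as a mean per time, and with the interaction of time and fraction. P-values were adjusted by Benjamini-Hochberg over all genes, with a threshold of 0.05. Half-lives came from least squares in Python 3.11.15 (scipy 1.17.1), and a rate of 0 or less counted as no finite half-life. Scripts were tested on simulated data. Of 23862 identifiers 23786 had a symbol. Replicates were numbered in the titles. Named genes were the 9 members, a fixed choice from 5 pathway lists, the genes of lowest and highest slope in each list, and the 2 nearest genes to a member. Members and lists were chosen with earlier results of these data known. Alternatives covered a pseudocount, the listing filter, library scaling, blocks, eBayes settings, time windows and left-out libraries.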

Additional observations from a re-analysis of the deposited data

Results flagged for a closer look

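The slope of Tet2 differed between the nucleus and the membrane fraction, by -0.37 log2 per h (nucleus minus membrane, SE 0.11), in the test of the interaction of time with fraction (limma, adjusted p = 0.042). The nuclear slope was -0.44 per h and the membrane slope -0.07, and the mean membrane ratio was already 0.582 ± 0.21 (SD, n = 3) at 30 min, when the nuclear mean was 1.18 ± 0.19. Over 14 alternatives the difference ranged from -0.73 to 0.00 and the adjusted p from 0.014 to 0.98. Groups of 3 libraries were too small to look for libraries that stand apart in single genes.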

How the results depend on the processing

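The counts of members depended mostly on library scaling. Divided by the median gene, members that fell numbered 0 in every fraction, 1 rose in nuclear and 2 in membrane RNA. At 240 min, 1 then lay below the 0 min level in total RNA and in the cytosol and 0 in nuclear and membrane RNA, with 3 above in the nucleus and 1 each in the cytosol and membrane. By this scaling 3954 of 13343 genes rose in nuclear and 3513 of 12408 in membrane RNA. At 240 min 5115 of 13343 genes lay above in nuclear, 4232 of 11979 in cytosolic and 4419 of 12408 in membrane RNA. Scaled to mitochondrially encoded mRNAs, 0 fell in nuclear and cytosolic and 2 in membrane RNA, 1 rose in the nucleus, 1 lay below at 240 min in the cytosol, and in nucleus minus membrane 0 were lower and 1 higher. With that scaling 10041 of 12408 genes fell in membrane RNA, 631 of 13343 rose in the nucleus and 4304 of 11979 lay below in the cytosol. With 30, 60 and 120 min only, 2 fell in total RNA, 1 fell in the cytosol and 1 rose in the nucleus, as 1 did with a last time of 180 min. Without the nuclear 30 min library of replicate 1, an alternative chosen after seeing the data, 2 fell and 2 lay below at 240 min in the nucleus. With genes listed in at least 6 of 12 libraries, 2 lay below in nuclear and 4 in membrane RNA. Leaving out a replicate gave 0 to 1 falls in total RNA, 1 to 2 in nuclear and 2 in cytosolic RNA, and at 240 min 1 to 2 members below in the nucleus and 1 to 3 in the cytosol.

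The nucleus minus membrane call of Tet2 became 0 calls with 30, 60 and 120 min only, the listing filter, a pseudocount of 0.1, the variance trend on recovered numbers (chosen after seeing the data), without that nuclear library and without any replicate (0 to 0). With the replicate block it was lost too, at an adjusted p of 0.070 and 0 calls, and the block changed no other call. Same-numbered libraries did not all deviate together, with median correlations of -0.011 to 0.049. Between membrane and cytosol, however, all 12 same-numbered pairs correlated positively, at 0.032 to 0.167. Differently numbered pairs of these fractions ran from -0.115 to 0.041. The fractions were separated from the same harvested cells, and the main interaction test did not pair them.

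Median half-lives were 213, 276 and 188 min with mitochondrial scaling in total RNA, cytosol and membrane, 720.0 min in the cytosol with median-gene scaling, 73.1, 177 and 326 min with 30, 60 and 120 min only, and 257 and 126 min with a last time of 180 min in total RNA and cytosol. With the 0 min level fixed at 1 they were 168, 1577, 257 and 111 min in total RNA, nucleus, cytosol and membrane. Leaving out a replicate gave 240.0 to 295 min in total RNA, 229 to 851 in the nucleus, 147 to 185 in the cytosol and 375 to 1231 in the membrane fraction. No finite median was had for total RNA (median-gene scaling, without replicate 2), nucleus (both scalings) or membrane (median-gene scaling).

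Signs that turned were as follows. With median-gene scaling the slopes were 0.13 (Tet2), 0.22 (Tdg) and 0.0017 (Mbd3) in total RNA, 0.15 (Tet1) and 0.18 (Tdg) in the nucleus, 0.20 (Tdg, cytosol) and 0.20 (Tet2, membrane), and the 240 min levels 0.63 (Dnmt1) and 0.54 (Tet2) in total RNA, 1.39 (Dnmt1), 1.08 (Tet1) and 0.16 (Tet2) in the nucleus, 0.95 (Tet1) and 0.45 (Tdg) in the cytosol, and 0.27 (Tet1) and 0.26 (Tdg) in the membrane fraction. With mitochondrial scaling slopes were -0.030 (Dnmt1, total), 0.038 (Tet1) and 0.0725 (Tdg) in nuclear RNA and 0.0723 (Tdg, cytosol), 240 min levels 0.27 (Dnmt1, nucleus), 0.76 (Tet1) and 0.26 (Tdg) in cytosolic RNA, and differences 0.00016 (Tdg, nucleus minus cytosol), -0.21 (Tet1), -0.077 (Tet2) and -0.046 (Tdg) for membrane minus cytosol, and 0.0047 (Tet2) and 0.046 (Tdg) for nucleus minus membrane. A pseudocount gave 240 min levels of 0.020 (Dnmt1, nucleus) and 0.040 (Tet1, cytosol). Over the replicates left out, slopes ranged from -0.19 to 0.33 (Dnmt1, total), -0.24 to 0.27 (Tdg, total), -0.40 to 0.017 (Tdg, nucleus) and -0.22 to 0.036 (Tdg, cytosol), and 240 min levels from -0.96 to 0.19 (Dnmt1, total), -0.27 to 0.051 (Dnmt1, nucleus), -0.57 to 0.75 (Tdg, nucleus) and -0.41 to 0.12 (Tet1, cytosol). The Tdg difference of nucleus minus cytosol ranged from -0.44 to 0.24 and was 0.038 without the nuclear 30 min library. Causes were not tested. Whole numbers, mostly under 15, limit Tdg, Mbd3 and Dnmt1.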
